A study of Danio rerio with 9 samples.

Results

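The transcripts described here were present in neurons sorted from zebrafish trunks and low or undetected in 2 kinds of glia sorted from the same stage. They were chosen by level. A transcript ID had to reach at least 20 CPM (the estimated count divided by the library's total, times 1e6) in all 3 neuron libraries and stay under 10 CPM in all 6 glial libraries. Of 52216 transcript IDs, 219 met both limits, and the 200 with the widest gap between their lowest neuron library and their highest glial library, on the log2(CPM + 1) scale, are the members. Because the same values chose them, their contrast between neurons and glia is a description and carries no test.

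The study sequenced 3 groups of 3 libraries from 72 hours post fertilization trunks, after the anterior part of each embryo was cut away. Neurons were nbt+ cells of Tg(nbt:dsred) fish, oligodendrocyte lineage cells were olig2+ and sox10+ cells of Tg(olig2:dsred);Tg(sox10:megfp) fish, and Schwann cells were foxd3+ and sox10+ cells of Gt(foxd3:mCherry);Tg(sox10:mEGFP) fish, all on the AB* strain. Each library came from 1750 ± 750 sorted cells. The labels do not say whether replicates had their own clutch, sort or RNA preparation, so a p-value reflects the spread between the libraries at hand, and that spread may be technical. Cell population, transgenes and sort cannot be told apart.

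As background, neurons carry signals as electrical impulses along axons and pass them on at synapses, and they depend on ion channels, vesicle release proteins and cytoskeletal proteins of the axon. The nbt reporter is driven by a promoter of a neural beta tubulin gene from Xenopus and marks neurons broadly. Motor, sensory and interneurons may thus be pooled in these libraries, whose make-up was not measured. Oligodendrocytes wrap axons in the central nervous system and Schwann cells wrap them in peripheral nerves, so both glial types are taken from tissue in which axons lie close by. The files give transcript IDs without gene names and 0 IDs matched the 2 gene tables at hand, so the members are given by ID, rank and value, and the sorted populations could not be checked against their marker genes. No role is given to any member for the same reason.

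Library totals ran from 7123251 to 17126213 estimated counts, with the 3 Schwann cell libraries lowest, at 8502028, 7123251 and 11191844. One count was thus worth 0.118, 0.140 and 0.0894 CPM in those libraries, against 0.0584 to 0.0874 CPM in neurons. Over the 23408 transcripts tested, Schwann cells replicate 3 was the only library whose most similar library belonged to another group, with a Spearman correlation of 0.498 with neurons replicate 1 and at most 0.496 within its own group. It was still the library most similar to Schwann cells replicates 1 and 2, at 0.496 and 0.440. The main counts and sums between the glial groups, and the lists under the same limits, are also given without Schwann cells replicate 3. That alternative was chosen after the data were seen.

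The member ranked first, ENSDART00000097982.5, had 602, 360.0 and 458 CPM in the neuron libraries, against 0.549, 0.459 and 0.421 CPM in the oligodendrocyte lineage and 0.353, 0.562 and 0.715 CPM in Schwann cells. It was thus detected in every library, with 3 to 8 counts in each glial library. Its mean of 473 ± 122 CPM in neurons (SD, n = 3) was 994-fold the mean of 0.476 ± 0.0657 CPM in the oligodendrocyte lineage and 872-fold the mean of 0.543 ± 0.182 CPM in Schwann cells. The member ranked second, ENSDART00000083453.6, had 319, 338 and 407 CPM in neurons, against 0.137, 0.262 and 0.421 CPM in the oligodendrocyte lineage and 0.118, 0.562 and 0.179 CPM in Schwann cells. Its glial values come from 1 to 5 counts a library, and its means were 355 ± 46.3 CPM in neurons, 0.273 ± 0.142 CPM in oligodendrocyte lineage libraries and 0.286 ± 0.241 CPM in Schwann cell libraries (SD, n = 3 each). Both IDs held whole-number estimated counts in all 9 libraries, so no fraction of a count was assigned to either.

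Most members were of modest abundance in neurons. Their mean CPM in neurons had a median of 59.9, with quartiles at 36.9 and 91.0, a lowest value of 23.4 and a highest of 473. Only 7 members averaged 200 CPM or more, 45 averaged 100 or more, 72 lay between 50 and 100, and 83 were under 50. Together the 200 members held 1.586%, 1.559% and 1.575% of the counts of the 3 neuron libraries, or 1.57% ± 0.0139. In the oligodendrocyte lineage they held 0.0163%, 0.0155% and 0.00666%, and in Schwann cells 0.00573%, 0.00599% and 0.0111%. These sums differ by the rule that chose the members. In sorted bulk samples, fewer cells with a transcript and less of it per cell cannot be told apart.

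**Figure D1:**
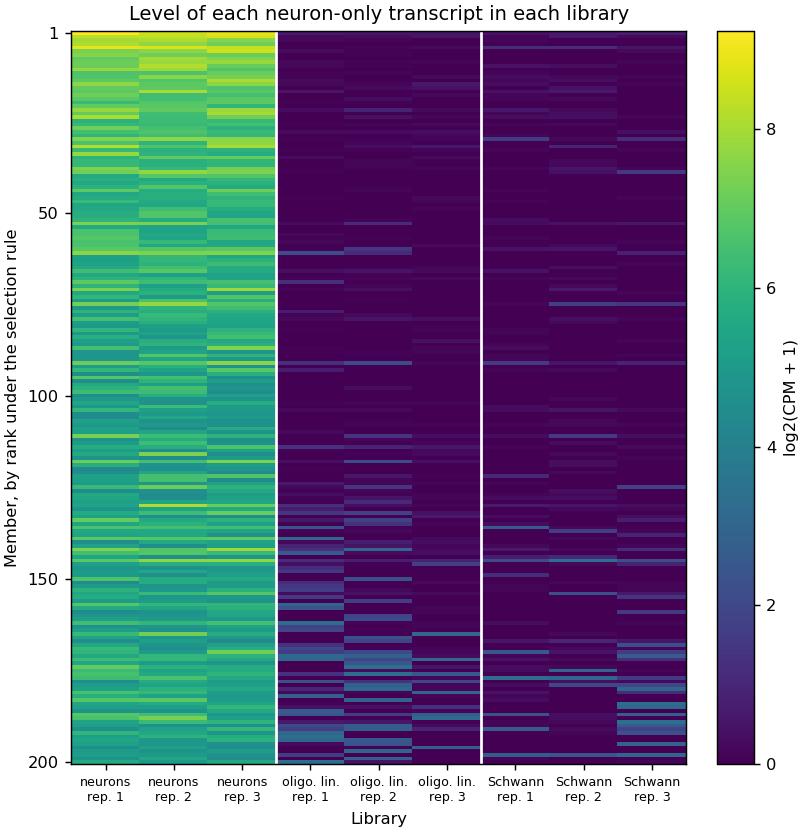
Heat map of the 200 members (rows, by rank) in the 9 libraries (columns), as log2(CPM + 1). All 3 neuron columns lie above 20 CPM in every row, and the faint glial signal, under 10 CPM by the rule, gathers in the lower ranks and is often confined to 1 column.

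At the edge of the list, the member ranked 200 had 49.0, 30.5 and 46.1 CPM in neurons and at most 8.91 CPM in glia, in oligodendrocyte lineage replicate 1. The transcript next in rank, just outside, had 53.1, 22.3 and 35.1 CPM in neurons and at most 6.70 CPM in glia, in Schwann cells replicate 2. Their gaps on the log2(CPM + 1) scale were 1.67 and 1.60. The last member is therefore no different in kind from the 19 transcripts that met the limits and were not taken.

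Divided by length, the order of the members changed. TPM divides a count by the effective length before scaling to a common total, and on the TPM scale the members' mean in neurons had a median of 53.3 with a range of 10.4 to 736. The highest by TPM was a member of 669 bases, ranked 60, at 118, 107 and 116 CPM in the neuron libraries. Over the 200 members the Spearman correlation of mean CPM with mean TPM in neurons was 0.457, a description over transcripts of the same libraries.

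The members were of middling length. Their deposited lengths had a median of 2539.5 bases, with quartiles at 1780.5 and 4100 and a range of 628 to 13717. The 5131 other transcripts at 20 CPM or more in all neuron libraries had a median of 3010 bases, and all 23408 tested a median of 2264. Under 1000 bases lay 9 members, 4.5%, beside 3.12% of those 5131 and 16.1% of all tested. Over 5000 bases lay 32 members, 16%, beside 21.1% and 13.1%. Length was not in the rule, but a lower limit in CPM favours long transcripts, so the nearest comparison is with the other transcripts past the same neuron limit. Those others did not face the glial limit of 10 CPM, which works against long transcripts. The median of the highest glial CPM was 2.41 for members over 5000 bases and 0.281 for those of 1000 to 5000 bases. The difference in length from those others can therefore not be told apart from the rule. The 9 short members had a median of 36.7 CPM and 169 TPM in neurons, and the 32 long members 78.4 CPM and 23.8 TPM.

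**Figure D2:**
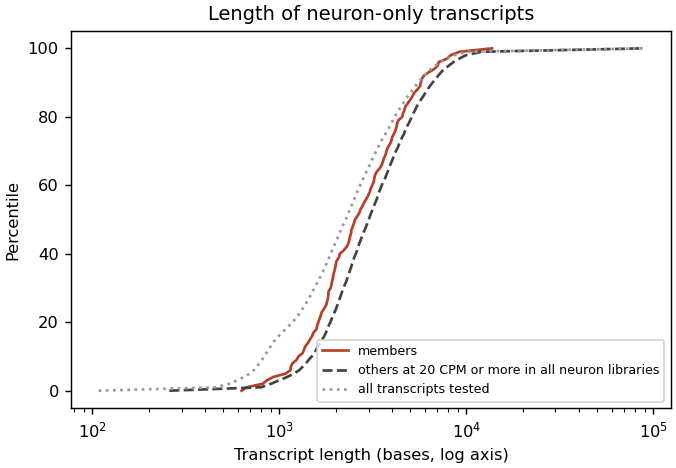
Percentile of transcript length in bases (log axis) for the 200 members, the 5131 other transcripts at 20 CPM or more in all neuron libraries and the 23408 tested. The curve of the members runs between the other curves over most of its course, with medians of 2539.5, 3010 and 2264 bases.

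Neuron libraries differed in which members they held most of. For 68, 70 and 62 members the highest of the 3 was replicate 1, 2 and 3. The 3 libraries shared only 3 of their own 10 most abundant members and 7 of their own 20. Over the members, the Spearman correlation of CPM was 0.617 for replicates 1 and 2, 0.673 for replicates 1 and 3, and 0.552 for replicates 2 and 3. The highest neuron library exceeded the lowest by more than 2-fold for 90 members and by more than 4-fold for 10. These values were not taken for other transcripts past the neuron limit, so they are not read as a trait of the members.

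The coefficient of variation (SD over mean, n = 3) of a member across neuron libraries had a median of 0.327, with quartiles at 0.205 and 0.447. The 4969 other transcripts past the same neuron limit, with means up to that of the top member, had a median of 0.306 and quartiles of 0.195 and 0.436. By level the medians were 0.278 for members and 0.294 for those others under 50 CPM, 0.360 and 0.349 from 50 to 100 CPM, and 0.314 and 0.269 from 100 CPM up. The steadiest member, ranked 137, had 45.4, 48.0 and 43.5 CPM in neurons. The least steady, ranked 116, had 46.2, 172 and 23.4 CPM, so replicate 2 held 7.34 times the level of replicate 3. The member ranked 34 had 225, 63.4 and 52.1 CPM, with replicate 1 highest, and 0 counts in all 6 glial libraries.

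Not all members are separate measurements. The members ranked 36 and 37 had the same length of 628 bases and the same estimated counts in all 9 libraries, at 70.1, 57.7 and 65.6 CPM in neurons. Those ranked 50 and 51, of 5016 bases, likewise shared every value, at 53.1, 104 and 41.7 CPM. The 200 members thus hold 198 distinct profiles. Whole-number counts in all 9 libraries were found for 68 members, 34%, against 21.5% of all transcripts with a count. For the other 132 members, some reads were divided between IDs in at least 1 library.

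A trace of most members was found in glia. By their highest glial library, 30 members had 0 counts, 89 lay above 0 and under 1 CPM, 45 from 1 to under 5 and 36 from 5 to under 10. The median of that highest value was 0.393 CPM. The 30 members with no glial counts averaged 26.4 to 185 CPM in neurons. Against a floor of 3 counts over all 6 glial libraries, 0.0438 CPM, they were at least 604-fold to at least 4218-fold higher in neurons. These floors cover counting error only, since PCR copies without molecular identifiers are not independent molecules. Among the 68 members with whole-number counts, 53 stayed under 1 CPM in every glial library, 77.9%, and among the other 132 members 66 did, 50%. By class, whole-number counts were held by 26.7% of members at 0 glial counts and 50.6% of those above 0 and under 1 CPM. The shares were 13.3% from 1 to under 5 CPM and 25% from 5 to under 10. The whole-number label covers the glial libraries too, so a fractional glial trace by itself removes a member from that class. These shares therefore cannot show what part division of reads had in the trace, which was not tested.

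The trace was seldom shared by all glial libraries. At least 1 count was present in all 6 for 13 members, in 1 to 5 for 155 and in none for 32. The 13 members present in all 6 averaged between 0.0728 and 5.95 CPM in the oligodendrocyte lineage and between 0.209 and 5.44 CPM in Schwann cells. Another 18 members had at least 5 CPM in 1 glial library and under 1 CPM in each of the other 5. That library was of the oligodendrocyte lineage for 15 of the 18, namely replicate 1 for 8, replicate 2 for 4 and replicate 3 for 3.

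The same pattern could be counted without the upper limit of 10 CPM. Of the 5331 transcripts at 20 CPM or more in all neuron libraries, 165 had at least 5 CPM in 1 glial library and under 1 CPM in the other 5, and 18 of these are members. Schwann cells replicate 3 was the single library for 56 of them, against 7 and 6 for Schwann cells replicates 1 and 2, and oligodendrocyte lineage replicates 1, 2 and 3 were it for 48, 32 and 16. In Schwann cells replicate 3 their median was 33.4 CPM and their highest 337 CPM. That library is also the only glial one whose most similar library was a neuron library, and the part of that likeness in this count was not tested.

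Many transcripts missed the list by a single library. At 10 CPM or more in just 1 glial library were 303 of the 5331, more than the 219 that met both limits, and 1588, or 29.8%, were at 10 CPM or more in all 6. Schwann cells replicate 3 alone held back 90, and oligodendrocyte lineage replicates 1, 2 and 3 alone held back 74, 61 and 36. Schwann cells replicates 1 and 2 held back 23 and 19. On the neuron side, 67, 102 and 87 transcripts failed only in replicate 1, 2 or 3. Without Schwann cells replicate 3, 309 transcripts met the limits, and 142 of the top 200 were the members described here.

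Each library was then left out of the choice and the 200 chosen transcripts were read in it, which gives a value the choice did not use. Of 200 chosen without neurons replicate 1, 161 were at 20 CPM or more there, as were 144 of 200 for replicate 2 and 147 of 200 for replicate 3. The shares of 80.5%, 72% and 73.5% stand beside 89.2%, 81.8% and 83.9% of all transcripts at 20 CPM or more in the other neuron libraries. Those backgrounds were not matched to the chosen transcripts for level, so nothing is read from the difference. Among the chosen, 5, 12 and 9 had 0 counts in the left-out neuron library, so a level of at least 20 CPM in 2 libraries was at times missing in the third. The share at 0 counts among all transcripts past that limit was not taken.

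In the glial libraries the chosen transcripts mostly stayed low. Under 10 CPM in the left-out library were 154, 158 and 175 of 200 for oligodendrocyte lineage replicates 1, 2 and 3, and 181, 185 and 144 of 200 for Schwann cells replicates 1, 2 and 3. The median in the left-out glial library was at most 0.131 CPM, but single transcripts reached 107 to 423 CPM. Of all tested transcripts under 10 CPM in the other 5 glial libraries, 85.4% to 89.8% were under 10 CPM in the left-out one. The chosen transcripts exceeded that share in Schwann cells replicates 1 and 2 alone, at 90.5% and 92.5%, and fell short of it most in Schwann cells replicate 3, at 72%. No test was made of these differences.

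**Figure D3:**
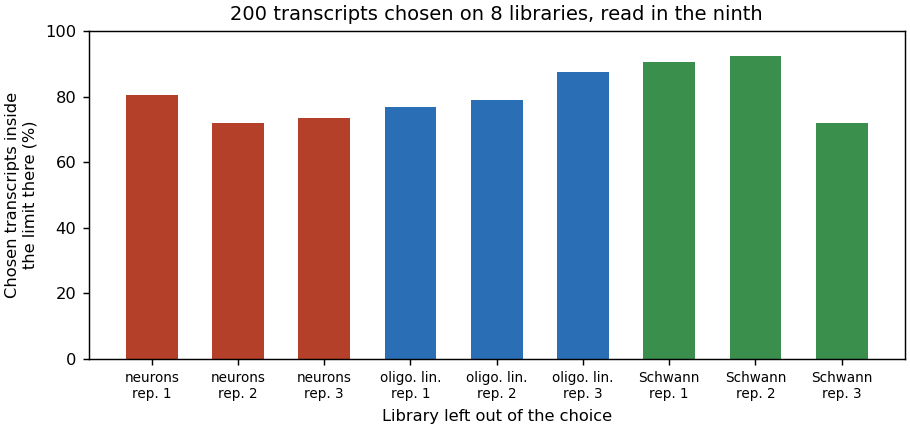
Share in percent of 200 transcripts, chosen on 8 libraries, that stayed within the limit in the library left out (at least 20 CPM for neurons, under 10 CPM for glia). Bars run from 72% in neurons replicate 2 and Schwann cells replicate 3 to 92.5% in Schwann cells replicate 2.

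The rule set the same limit on both glial groups and did not rank them against each other. Their contrast was tested, but values this near 0 leave a test little to find. The mean was higher in the oligodendrocyte lineage for 110 members, 55% beside 52.4% of all tested. It was higher in Schwann cells for 60, 30% beside 46.5%, and 0 in both for 30, or 15%. The 2 shares of all tested leave little room for such ties. Ties at 0 lower both shares of the members, so neither share is read against its background. The summed CPM of the members was 163, 155 and 66.6 in oligodendrocyte lineage libraries and 57.3, 59.9 and 111 in Schwann cell libraries. These ranges overlapped only through Schwann cells replicate 3, at 111, and without it every oligodendrocyte lineage sum lay above both remaining Schwann cell sums. That separation rests on 66.6 against 59.9 CPM. In each glial library the 10 highest members made up 45.9% to 79.3% of the sum, so the sums reflect few members. Without Schwann cells replicate 3 the mean was higher in the oligodendrocyte lineage for 108 members, higher in Schwann cells for 58 and 0 in both for 34. The shares of all tested were not taken for that setting, so these counts are no result about the members. At least 1 count was found for 99, 107 and 77 members in the oligodendrocyte lineage and for 74, 70 and 69 in Schwann cells. With every library thinned to 7123174 counts these numbers were 82, 85 and 59 against 72, 71 and 61, and the groups overlapped. The share of all transcripts with a count was not taken, so these numbers are no result about the members.

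**Figure D4:**
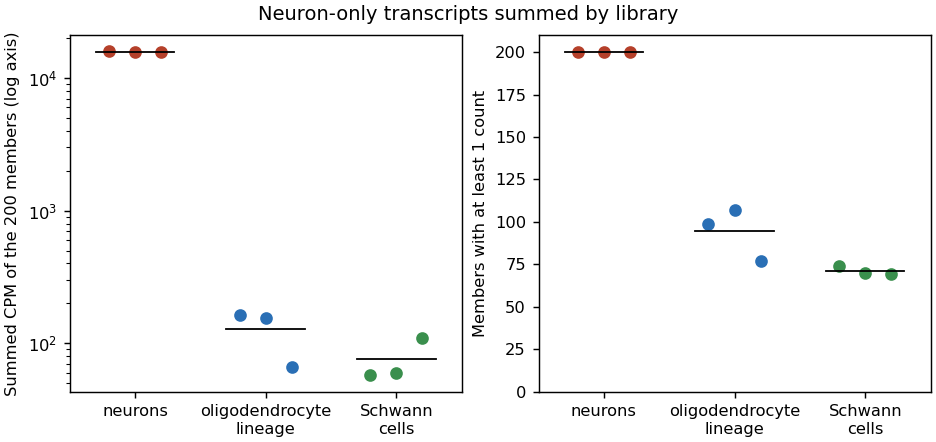
Summed CPM of the 200 members (left, log axis) and number of members with at least 1 count (right) in each library, with points for libraries and lines for the means of 3. Neuron libraries lie between 15589 and 15864 CPM, oligodendrocyte lineage libraries between 66.6 and 163 CPM, and Schwann cell libraries between 57.3 and 111 CPM, with replicate 3 alone above the lowest of the oligodendrocyte lineage. On the right, the 77 to 107 members of the oligodendrocyte lineage lie above the 69 to 74 of Schwann cells, whose libraries had the lowest totals. At equal totals the groups overlapped, at 82, 85 and 59 against 72, 71 and 61.

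When the oligodendrocyte lineage was set against Schwann cells with edgeR's quasi-likelihood test, 0 of 200 members passed a Benjamini-Hochberg adjusted p of 0.05, where 0.795% of the 23408 transcripts tested passed. At an unadjusted p under 0.05, 22 members were higher in the oligodendrocyte lineage, 11%, beside 10.8% of all tested, and 11 were lower, 5.5%, beside 6.35%. These shares are near the background and are no result about the members. DESeq2 called 6 members higher, 3% beside 9.02% of all tested, and 8 lower, 4% beside 5.66%, and limma voom called 0, beside 2.18%. Every oligodendrocyte lineage library lay above every Schwann cell library for 9 members, 4.5% beside 10.7% of all tested, and below for 8, 4% beside 6.09%. Without Schwann cells replicate 3 edgeR again called 0 members, with 16 higher at an unadjusted p under 0.05, 8% beside 14.4%, and 9 lower, 4.5% beside 4.68%. With that library left out, 16 members lay above in every library, 8% beside 18.1%, and 12 lay below, 6% beside 8.49%. The cap of 10 CPM limits how far members can differ here. With only the glial groups fitted, edgeR's filter on low counts kept 15 of the 200. Most members were thus tested only because of their neuron counts. The 0 called, and the shares beside the background, therefore say little about the members.

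The members with the lowest p in each direction were picked as extremes and do not show the usual size of a glial trace. Over all members the median of the mean CPM was 0.0904 in the oligodendrocyte lineage and 0.0468 in Schwann cells. ENSDART00000105204.4 had 1.57, 9.14 and 4.76 CPM in the oligodendrocyte lineage against 0 counts in all 3 Schwann cell libraries, with 92.1, 47.9 and 64.0 CPM in neurons. Its mean of 5.16 CPM was at least 46.1-fold above the floor of 3 counts over the Schwann cell group, 0.112 CPM. ENSDART00000174986.1 had 1.77, 2.44 and 0.317 CPM in the oligodendrocyte lineage, also against 0 counts in Schwann cells, at least 13.5-fold by the same floor. The edgeR adjusted p was 0.0878 for the first and 0.136 for the second, so neither was called.

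In the other direction, ENSDART00000169119.1 had 0, 0 and 0.0867 CPM in the oligodendrocyte lineage against 8.96, 7.39 and 1.96 CPM in Schwann cells, with 79.7, 94.1 and 46.9 CPM in neurons. ENSDART00000090252.5 had 0 counts in all 3 oligodendrocyte lineage libraries against 0.119, 2.39 and 1.73 CPM in Schwann cells, with 156, 219 and 108 CPM in neurons. Neither was called, with edgeR adjusted p-values of 0.105 and 0.120. None of these 4 IDs held whole-number counts in all libraries, so their levels may include reads shared with other IDs. DESeq2 called all 4, with adjusted p-values of 3.3e-05 and 0.00421 for those higher in the oligodendrocyte lineage and 9.4e-06 and 0.00167 for those higher in Schwann cells. Limma voom called 0 of them, with adjusted p-values of 0.103, 0.253, 0.0596 and 0.268 in the same order. With only the glial groups fitted, the filter dropped ENSDART00000174986.1 and ENSDART00000090252.5, and the edgeR adjusted p was 0.172 for ENSDART00000105204.4 and 0.173 for ENSDART00000169119.1. All 4 were picked by their p in this same contrast, so their p-values are a description.

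**Figure D5:**
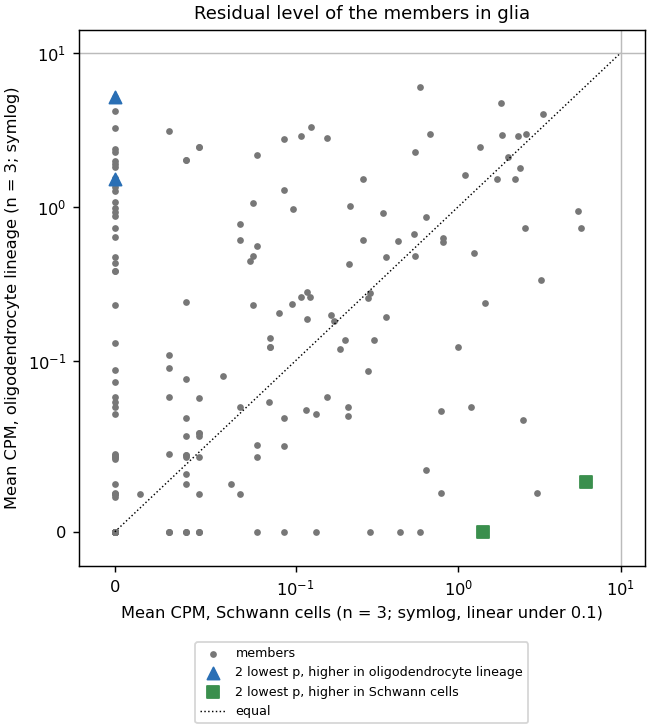
Mean CPM of each member in the oligodendrocyte lineage (vertical) against Schwann cells (horizontal), n = 3 each, on axes that are linear under 0.1 and logarithmic above, with the dotted line of equal means and grey lines at the limit of 10 CPM. Points scatter on both sides of the line and many lie on an axis, and the 4 named members sit at the margins.

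Against neurons the calls are given as a description. In the fit of all 9 libraries edgeR called 10 members higher in neurons than in Schwann cells, 5% beside 0.299% of all tested, and 6 members higher in neurons than in the oligodendrocyte lineage, 3% beside 0.0513%, with 5 in common. The rule used these contrasts, which share the neuron libraries, so nothing is read from the excess. At an unadjusted p under 0.05 the counts were 187 members beside 13.3% of all tested and 168 members beside 8.67%. The 11 members called in either contrast averaged 131 to 473 CPM in neurons, and the last of them stood at rank 38. Every glial group mean under the floor of 3 counts over the group, whether 0 or not, was set at that floor, which applied to 136 members in Schwann cells, 72 of them at 0 counts, and to 88 in the oligodendrocyte lineage, 46 of them at 0 counts. On that basis the median fold was 421 for neurons over Schwann cells and 462 for neurons over the oligodendrocyte lineage. Some members set at the floor had counts, and the others entered with their measured means. These medians are therefore estimates and not lower bounds.

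The calls changed with single libraries left out. The count of 10 against Schwann cells became 0 without any 1 neuron library, 3, 1 and 6 without oligodendrocyte lineage replicates 1, 2 and 3, and 2, 3 and 4 without Schwann cells replicates 1, 2 and 3. The count of 6 against the oligodendrocyte lineage became 0 without any 1 neuron library or without oligodendrocyte lineage replicate 2, 3 and 2 without oligodendrocyte lineage replicates 1 and 3, and 7, 14 and 5 without Schwann cells replicates 1, 2 and 3. DESeq2 called 179 members against Schwann cells, beside 11% of all tested, and 163 against the oligodendrocyte lineage, beside 6.92%. Voom called 189, beside 5.97%, and 193, beside 7.03%.

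The same limits turned round gave shorter lists for the glial groups. Of 5331 transcripts at 20 CPM or more in all neuron libraries, 219, or 4.11%, stayed under 10 CPM in all 6 others. This held for 55 of 4024 in the oligodendrocyte lineage, 1.37%, and 33 of 2647 in Schwann cells, 1.25%. For the neuron list, the share, spread and length below cover only its top 200, the members, while the glial lists are whole. Over all 219 the neuron share was 1.65% and the median length 2659 bases. The lists held 1.57% ± 0.0139 of the counts of neuron libraries, 0.731% ± 0.0336 of those of oligodendrocyte lineage libraries and 0.549% ± 0.0345 of those of Schwann cell libraries (SD, n = 3 each). Their median coefficients of variation in their own group were 0.327, 0.431 and 0.475, and median lengths were 2539.5, 2087 and 2113 bases. Without Schwann cells replicate 3, 309 transcripts passed for neurons, 5.80% of 5331, 77 for the oligodendrocyte lineage, 1.91% of 4024, and 77 for Schwann cells, 2.49% of 3093, where only 2 Schwann cell libraries had to reach 20 CPM. The neuron list then held 1.84% ± 0.0546 of the counts of neuron libraries (SD, n = 3). The glial lists then held 1.17% ± 0.103 of the counts of oligodendrocyte lineage libraries (SD, n = 3) and 0.859% ± 0.0255 of those of Schwann cell libraries (SD, n = 2). The neuron share, spread and length in this setting cover the top 200 of the 309. For neurons, oligodendrocyte lineage and Schwann cells, median coefficients of variation were then 0.347, 0.427 and 0.257, the last over 2 libraries. A spread over 2 libraries is not measured like a spread over 3, so no order of the lists is read from these values. Median lengths were then 2655, 2485 and 1923 bases. The number in the Schwann cell list and the shares of all 3 lists thus changed without Schwann cells replicate 3. Leaving out any library drops a limit, so a list can only grow, and the neuron list then ran from 238 to 321. The glial lists, and the share of a newly chosen neuron list, were not read without any other library. The change can therefore not be credited to Schwann cells replicate 3 in particular. The difference between lists was not tested, because the number of libraries, their depth and their spread enter each list.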

How the data were processed

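Each file lists, per the file headers, a transcript ID, a length and an effective length in bases, and an estimated count. The authors deposited estimated counts without scaling. Per the submitters' processing notes, the tools included RSEM 1.2.15, Bowtie2 2.1.0, Trimmomatic and FastQC, and the build was danRer10. The program behind the counts and the release of the annotation were not given in the sources used here. Libraries were made with a SMART-Seq v4 low input kit, per the labels' protocols.

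The members and lists were chosen with earlier results of these data known. CPM in text is the count over the file sum, without further scaling. Counts were rounded and tested per transcript with edgeR 4.0.16 in R 4.3.3 (quasi-likelihood test, two-sided, TMM factors, filterByExpr by group, all 9 libraries), keeping 23408 of 52216 transcripts, with a common biological coefficient of variation of 1.584. Benjamini-Hochberg adjustment ran over all transcripts tested. DESeq2 1.42.0 and limma 3.58.1 voom were alternatives, the latter with an estimated quality weight for each library. Counts within 1e-06 of a whole number were called whole. IDs are printed for the 2 members of highest rank and the 2 of lowest p in each direction between the glial groups. The edges of the list and the extremes of spread are given by value. The gene lists fixed by symbol were not used here, since IDs could not be paired with symbols.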

Additional observations from a re-analysis of the deposited data

How the results depend on the processing

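Member counts called by edgeR in neurons against Schwann cells (10) and against the oligodendrocyte lineage (6) became 5 and 2 with upper-quartile factors, 22 and 19 without a filter, 179 and 163 with DESeq2, 189 and 193 with voom, and 3 and 85 with only the compared groups. Leaving out 1 library gave 0 to 6 and 0 to 14. Between the glial groups the count of 0 held under every edgeR setting and voom, and DESeq2 gave 14. With only the glial groups fitted, the filter left 15 members. With replicate number as a block (replicate block), counts were 0, 0 and 0. Same-numbered libraries correlated between -0.0360 and 0.0280 in their deviations, and not every library correlated best with its own number, so the numbers were not taken as pairs. The number meeting the limits was 79 with limits of 40 and 5 CPM, and 218 to 296 with TMM-scaled CPM, TPM, limits of 10 and 5 or equal depth, and TPM kept 131 of the 200 members. Leaving out 1 library gave 238 to 321. The neuron share was 1.65% over all 219 transcripts. The median length was 2659 bases over all 219, 2176 as effective length and 2022.5 among members with whole counts. Over all left-out libraries 80.5% of the chosen stayed within limits, and 86.8% with limits relaxed to 10 for neurons and 20 for glia. The cause was not tested for these moves. At 3 counts over a group, depth cannot show levels under 0.0719 CPM in oligodendrocyte lineage libraries or 0.112 CPM in Schwann cell libraries.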
